A study of Homo sapiens with 4 samples.

Results

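The miR-181 family was measured in PC-3, a long-established line of human prostate cancer cells, with and without the secreted peptide apelin. Every row of the deposited table whose name is miR-181 with the letter a, b, c or d was taken, on either arm of the hairpin and under any copy name. The rule found 4 of the 1096 listed entries, namely miR-181a-5p, miR-181b-5p, miR-181c-5p and miR-181d-5p. All 4 are 5p entries, cut from the 5′ arm of the hairpin, and no 3p entry of the family was among the rows. Over all rows, 198 miRNA names had a 5p entry and 227 had a 3p entry, and only 4 names had both. A comparison of the arms of a hairpin was therefore not possible.

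The apelin group was PC-3 cells given apelin in their medium at 10 µg/mL for 24 h, and the control group was untreated PC-3 cells. Both groups were grown in DMEM with serum and antibiotics, and each had 2 small RNA libraries, numbered as in the sample titles. The labels name no separate cultures for the libraries of a group, so a p-value reflects the spread between these libraries alone, which may be technical. PC-3 is a single line, so nothing here compares tumours or donors. The study sought miRNAs that differ under apelin.

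MicroRNAs guide Argonaute proteins to messenger RNAs, mainly through the seed, bases 2 to 8 counted from the 5′ end, and lower the output of those messages. The miR-181 family is best known from the immune system, where in mice miR-181a sets how strongly developing T cells respond through their antigen receptor. In tumour cells members have been tied both to growth and to its restraint, with BCL2 among the reported targets, and TGF-beta is reported to raise miR-181 in epithelial cells. The copies of the family lie in tandem pairs, each an a-type hairpin beside a b-type hairpin.

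The mature sequences below come from RefSeq (GRCh38.p14), which matched all 4 entries, and show how little separates the members that the counts must tell apart. Capitals mark the seed.
miR-181a-5p: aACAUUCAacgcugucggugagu
miR-181c-5p: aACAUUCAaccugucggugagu
miR-181b-5p: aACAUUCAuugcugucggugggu
miR-181d-5p: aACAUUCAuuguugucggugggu

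The 4 seeds are identical, so the members differ only after the seed. Positions are counted from 1 at the 5′ end of the first-named miRNA. Between miR-181a-5p and miR-181c-5p there was 1 difference, G11del, which makes miR-181c-5p 22 nt long and the others 23 nt. Between miR-181b-5p and miR-181d-5p there was also 1, C12U. miR-181a-5p and miR-181b-5p differ by A9U, C10U and A21G, and miR-181a-5p and miR-181d-5p by these and C12U. The sequences thus form a pair of near-identical couples, a with c and b with d. The sources used here do not say how the authors assigned reads that match more than 1 member, so the split within a couple is uncertain where reads are short or hold an error. The table lists a length of 24 nt for each member, 1 nt more than RefSeq for a, b and d and 2 nt more for c. Among the 452 catalogue entries (named miRNAs, as against predicted ones) found by name in RefSeq, 213 had equal lengths and 109 were listed 1 nt longer.

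One further human miRNA in RefSeq shares the seed, miR-4262, which is not among the rows analysed here. It is shown because the same target sites could pair with its seed while the rest of it differs.
miR-4262: gACAUUCAgacuaccug

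The couples in sequence are not the couples in the genome. In GENCODE release 29 (GRCh38), MIR181B1 (chromosome 1, 198858873 to 198858982) and MIR181A1 (198859044 to 198859153) lie 61 bases apart on the minus strand, in an intron of the long noncoding RNA MIR181A1HG. MIR181A2 (chromosome 9, 124692442 to 124692551) and MIR181B2 (124693710 to 124693798) lie 1158 bases apart on the plus strand, in an intron of MIR181A2HG. The same place is an intron of NR6A1, a nuclear receptor gene on the opposite strand. MIR181C (chromosome 19, 13874699 to 13874808) and MIR181D (13874875 to 13875011) lie 66 bases apart on the plus strand, in an intron of NANOS3, a germ cell gene. Counts of miR-181a-5p and miR-181b-5p can therefore come from chromosome 1 or chromosome 9 and do not say which, while miR-181c-5p and miR-181d-5p each have a single hairpin. Those single hairpins are printed with the 5p miRNA in capitals, to show the source of the 2 members that report on 1 locus.
MIR181C: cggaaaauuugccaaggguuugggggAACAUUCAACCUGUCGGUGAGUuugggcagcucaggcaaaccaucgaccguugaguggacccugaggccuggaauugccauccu
MIR181D: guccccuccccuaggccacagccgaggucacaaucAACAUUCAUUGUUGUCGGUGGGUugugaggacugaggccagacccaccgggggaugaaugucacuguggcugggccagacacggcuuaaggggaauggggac

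The libraries held 5322429 and 5701358 counts with apelin and 6014838 and 5662879 counts in controls. Levels are given as TPM, here counts per 1000000 counts of the library with no division by length. Fold changes from edgeR, the count model used for testing, also use TMM factors that rescale the library totals. These were 1.02 for apelin 1, 0.964 for apelin 2, 0.980 for control 1 and 1.03 for control 2. The order of libraries in TPM can therefore differ from the order behind a fold change. Apelin 2 stood apart through miR-21-5p, at 168194 TPM against 91403 to 113810 TPM in the other 3 libraries. Of 3 epithelial markers miR-205-5p and miR-200c-3p were listed, with a summed level of 95.2 and 106.9 TPM with apelin and 127.2 and 130.9 TPM in controls, and miR-141-3p was not among the rows. Entries of the miR-200 family outside that list, added after values were seen, were far more abundant. miR-200b-3p had 6488 and 6467 TPM with apelin and 6671 and 6915 TPM in controls (log2 fold change -0.048, SE 0.070). miR-200a-3p had 929 and 1216 TPM with apelin and 906 and 903 TPM in controls (0.27, SE 0.22). miR-429 had 342 and 468 TPM with apelin and 337 and 438 TPM in controls (0.096, SE 0.28). Lymphocytes are rich in miR-181, and blood cell markers were at or near 0. Of 5 such markers only miR-223-3p and miR-150-5p were listed, with a sum of 0.88 and 2.07 TPM with apelin and 0.71 and 4.66 TPM in controls. Markers of muscle (miR-1-3p and miR-133a-3p) summed to 1.88 to 2.63 TPM with apelin and 1.00 to 2.12 TPM in controls, and those of stroma (miR-199a-3p and miR-143-3p) to 3.86 to 4.13 TPM with apelin and 4.16 to 4.42 TPM in controls. The endothelial miR-126-3p was at 6.95 and 13.7 TPM with apelin and 6.32 and 7.24 TPM in controls. Of 3 neuron markers only miR-9-5p was among the rows under its listed name. It was high at 300.1 and 399.2 TPM with apelin and 297.8 and 299.0 TPM in controls (0.26, SE 0.23). Another of them, miR-128-3p, had rows under copy names only, added after values were seen. Mean levels over the 4 libraries were 1374 TPM for miR-128-1-3p (-0.25, SE 0.12) and 1202 TPM for miR-128-2-3p (-0.26, SE 0.12). In bulk RNA, fewer cells holding a miRNA and less of it per cell cannot be told apart.

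miR-181a-5p made up most of the family, miR-181b-5p 22.9 to 26.6% of it, and the chromosome 19 members c and d were minor. The family had 27254 and 25652 counts in the apelin libraries and 31527 and 32838 in the controls. That was 0.512% of apelin 1 and 0.45% of apelin 2, against 0.524% of control 1 and 0.580% of control 2. miR-181a-5p, the member best studied in T cells, held 69.6% (95% exact Clopper-Pearson interval 69.1 to 70.2) and 67.4% (66.9 to 68.0) of the family's counts with apelin. In controls it held 66.6% (66.1 to 67.1) and 65.9% (65.3 to 66.4). Both apelin libraries lay above both controls, but the intervals of apelin 2 and control 1 overlapped. A share is relative to the other members and rises when theirs fall. The mean level of miR-181a-5p itself was 3300 TPM with apelin and 3655 TPM in controls, with overlapping groups in TPM.

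miR-181b-5p, cut from the hairpins next to those of miR-181a-5p, held 22.9% (22.4 to 23.4) and 23.3% (22.8 to 23.8) with apelin, against 26.6% (26.2 to 27.1) and 25.97% (25.5 to 26.5) in controls. Both apelin libraries lay below both controls, with no overlap of their intervals. The c share was 3.54% and 5.04% with apelin and 3.02% and 3.89% in controls, and the d share was 3.87% and 4.20% with apelin and 3.72% and 4.28% in controls. The intervals cover counting error only, with each read counted as separate. Amplified reads that carry no molecular identifier cannot be taken as separate molecules, so the intervals may be too narrow even for that error.

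By mean TPM over the 4 libraries miR-181a-5p ranked 46 of the 516 catalogue entries, miR-181b-5p ranked 60, miR-181d-5p 119 and miR-181c-5p 121. The order a, b, then c and d held in every library, with a well above b and b well above the rest. The order of c and d did not hold, as d was the higher in apelin 1 and both controls and c was the higher in apelin 2. Their share intervals did not overlap in apelin 2 (4.78 to 5.32% for c and 3.96 to 4.46% for d) or in control 1 (2.83 to 3.21% for c and 3.52 to 3.94% for d). All 4 members passed the minimum for testing, a mean of 10 TPM.

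**Figure D1:**
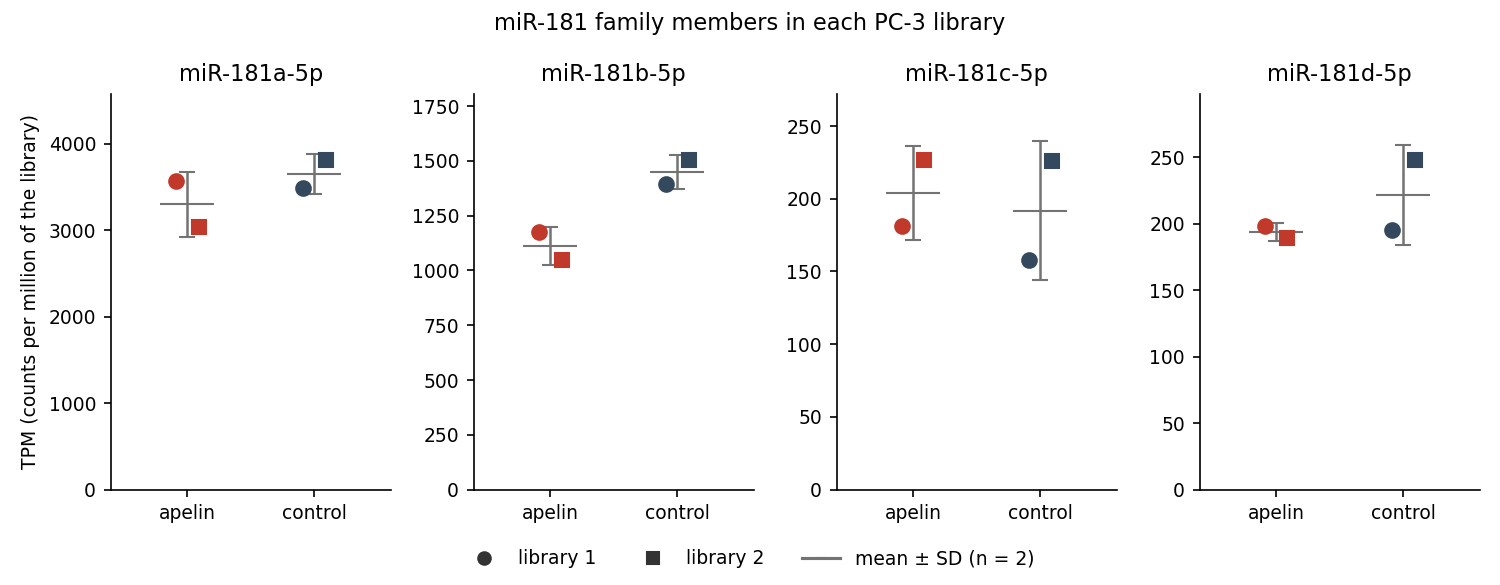
Level of each miR-181 member in TPM (y axis, from 0, a separate scale per panel) in the 2 apelin libraries and the 2 control libraries; points are libraries, and the grey bar is the mean with its SD. miR-181b-5p had 1049 and 1175 TPM with apelin, both below the controls at 1397 and 1506 TPM, while the other members' groups overlap in TPM. For miR-181a-5p and miR-181d-5p this overlap depends on the scaling. After TMM scaling, which the fold changes use, both apelin libraries lie below both controls, for miR-181d-5p by little. miR-181c-5p still overlaps. The share of all entries so arranged after scaling was not computed, so how common this is in the table is not known.

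Between apelin-treated and control cells no member passed edgeR's quasi-likelihood test adjusted over the table, and miR-181b-5p had the lowest value of the family. miR-181b-5p had 1175 TPM in apelin 1 and 1049 TPM in apelin 2, against 1397 TPM in control 1 and 1506 TPM in control 2. Both apelin libraries lay below both controls, by more than the counting intervals of any of them (1146 to 1204 and 1023 to 1076 TPM with apelin, 1367 to 1427 and 1474 to 1538 TPM in controls). Its mean was 1112 ± 88.7 TPM with apelin and 1451 ± 77.5 TPM in controls (SD, n = 2 each), a log2 fold change of -0.36 (SE 0.094, 95% interval -0.67 to -0.062, unadjusted p = 0.0316, edgeR adjusted p = 0.627). That unadjusted p was the 10th smallest of 263 tested entries. Of those 263 entries, miR-181b-5p included, 17.5% had both apelin libraries below both controls in TPM, so this arrangement was common in the table. In TPM the sum of the low-level epithelial markers miR-205-5p and miR-200c-3p was also lower in both apelin libraries, as was the abundant miR-200b-3p. In TPM miR-200a-3p was higher in both, and miR-429 overlapped. After TMM scaling the groups of miR-200b-3p and of miR-200a-3p overlap as well. The log2 fold changes of miR-200b-3p, miR-200a-3p and miR-429 ranged from -0.048 to 0.27. The part of any of these miRNAs in the result was not tested.

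miR-181a-5p had 3566 TPM in apelin 1 and 3034 TPM in apelin 2, against 3492 TPM in control 1 and 3819 TPM in control 2. In TPM the groups overlapped, since apelin 1 lay between the controls, and apelin 2 was the lowest library. TMM scaling, which the fold change uses, lowers apelin 1 relative to control 1 (factors 1.02 and 0.980). It places apelin 1 below both controls, so the overlap depends on the scaling. Its mean was 3300 ± 376 TPM with apelin and 3655 ± 231 TPM in controls (SD, n = 2 each), with a log2 fold change of -0.13 (SE 0.096, 95% interval -0.44 to 0.18, edgeR adjusted p = 0.663). The difference in TPM was within the spread of the libraries.

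miR-181c-5p, which lacks 1 base of miR-181a-5p, had 181.3 TPM in apelin 1 and 227 TPM in apelin 2, against 158 TPM in control 1 and 226 TPM in control 2. The groups overlapped almost wholly, and the libraries of each group differed by more than their read-counting intervals. Those were 170 to 193 and 215 to 240 TPM with apelin and 148 to 168 and 213 to 238 TPM in controls. Its log2 fold change was 0.12 (SE 0.27, 95% interval -0.76 to 1.01, edgeR adjusted p = 0.878). The direction rested on single libraries, as it was -0.16 without apelin 2 and -0.11 without control 1, and 0.29 without apelin 1 and 0.35 without control 2.

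miR-181d-5p, 1 base from miR-181b-5p, had 198 TPM in apelin 1 and 189 TPM in apelin 2, against 195 TPM in control 1 and 248 TPM in control 2. Control 2 stood above the other 3 libraries, which lay close together. Its log2 fold change was -0.17 (SE 0.16, 95% interval -0.69 to 0.35, edgeR adjusted p = 0.688). Without control 2 it was -0.039 and without control 1 it was -0.33.

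edgeR called 0 of the 4 members and 0 of the 263 tested entries (0%), with 15 entries at an unadjusted p under 0.05, miR-181b-5p among them. DESeq2 on the same counts called 53 entries and limma on log2(TPM + 1) called 4. miR-181b-5p was among those of DESeq2 (log2 fold change -0.37, SE 0.080, adjusted p = 3.05e-05) and not among those of limma (-0.39, adjusted p = 0.466), and the other 3 members were called by neither. edgeR called 11 entries without control 1 and 19 without control 2, none of them a member. In DESeq2 34 of 263 entries (12.9%) were called lower with apelin, so 1 called member of 4 was set against a table with many such calls. When only the 207 catalogue entries above 0 in all 4 libraries were fitted, DESeq2 gave miR-181b-5p an adjusted p = 0.293 (chosen after seeing the data) and edgeR 0.436.

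The median log2 fold change of the members was -0.15, with 3 below 0 and 1 above. Over all 263 tested entries it was -0.018, with 133 below 0 and 130 above, and over the 213 tested catalogue entries 0.012. Among the 207 catalogue entries above 0 in all libraries, whose fold changes ran from -0.40 at the 5th percentile to 0.61 at the 95th, 15 were at or below the value of miR-181b-5p, itself included, and 50 at or below that of miR-181d-5p.

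**Figure D2:**
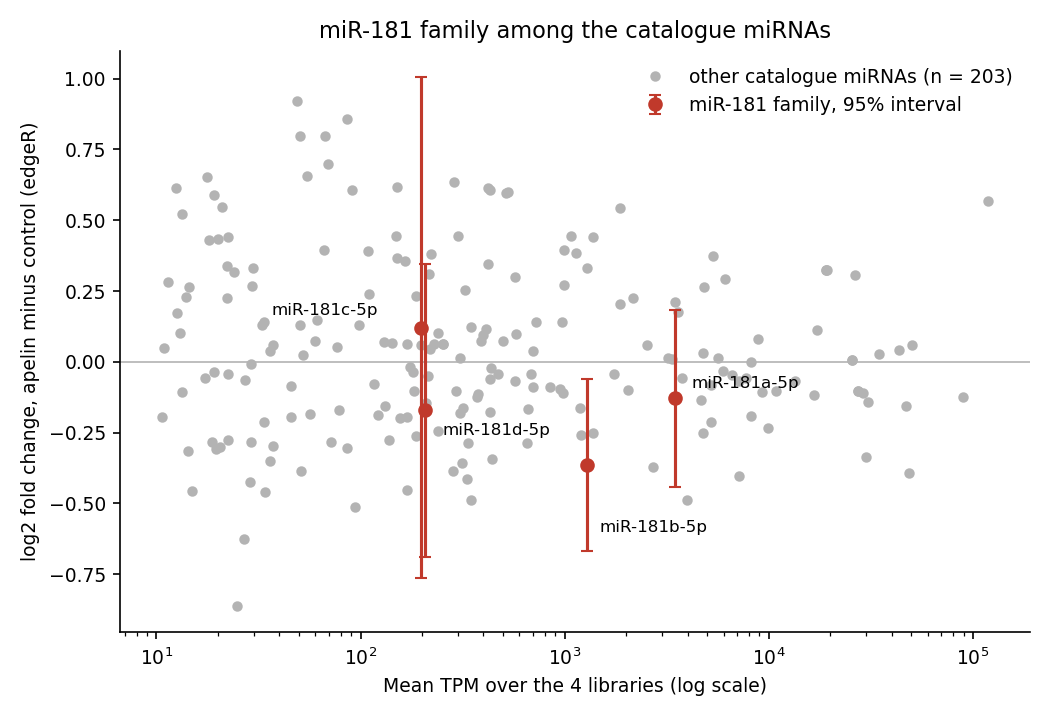
Log2 fold change, apelin minus control, from edgeR (y axis) against mean TPM over the 4 libraries (x axis, log scale) for the 207 catalogue miRNAs above 0 in all libraries; grey points are the other miRNAs, and red points are the miR-181 members with their unadjusted 95% intervals. The interval of miR-181b-5p runs from -0.67 to -0.062, and those of a, c and d include 0.

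As all members share a seed, their summed level is the amount of miRNA with that seed in the 4 member rows. Predicted entries, and named ones not found in RefSeq, were not searched for the seed. It was 5121 TPM in apelin 1 and 4499 TPM in apelin 2, against 5242 TPM in control 1 and 5799 TPM in control 2. Both apelin libraries lay below both controls, though apelin 1 did so by little. The mean was 4810 ± 439 TPM with apelin and 5520 ± 394 TPM in controls (SD, n = 2 each), a log2 difference of -0.20, for which no test is given. It was -0.11 without apelin 2, -0.13 without control 2, -0.27 without control 1 and -0.29 without apelin 1. The chromosome 19 members c and d together had 380 and 416 TPM with apelin and 353 and 474 TPM in controls. Those groups overlapped, with both extremes in the controls.

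Ratios between members within a library do not depend on how libraries are scaled. miR-181b-5p had 0.329 and 0.346 counts per count of miR-181a-5p in apelin 1 and 2, against 0.400 and 0.394 in control 1 and 2. The controls nearly coincided, and both apelin libraries were lower. The mean ratio was 0.338 ± 0.012 with apelin and 0.397 ± 0.0039 in controls (SD, n = 2 each), a log2 difference of -0.23 (exact permutation test, two-sided, p = 0.333, which is the smallest p that 2 against 2 libraries allow, and 0.667 adjusted over 3 ratios). It stayed between -0.27 and -0.20 when any 1 library was left out. Of the 206 tested catalogue entries above 0 in all libraries, miR-181a-5p left out and miR-181b-5p included, 9.22% had a ratio to miR-181a-5p that was lower in both apelin libraries than in both controls.

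miR-181c-5p had 0.0508 and 0.0748 counts per count of miR-181a-5p with apelin, against 0.0453 and 0.0591 in controls. The groups overlapped, and the log2 difference of 0.25 (exact permutation test, two-sided, p = 0.667) was -0.025 without apelin 2, 0.061 without control 1, 0.45 without control 2 and 0.53 without apelin 1. For miR-181d-5p the ratio was 0.0556 and 0.0623 with apelin, against 0.0559 and 0.0650 in controls. Here too the groups overlapped, and the log2 difference of -0.034 (exact permutation test, two-sided, p = 0.667) turned to 0.048 without apelin 1 and 0.075 without control 2, and was -0.12 without apelin 2 and -0.14 without control 1. The adjusted p was 0.667 for each of the 3 ratios.

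The neighbours c and d, 66 bases apart on chromosome 19, were also set against each other, a ratio chosen after seeing the data and given with no test. miR-181d-5p had 1.09 and 0.833 counts per count of miR-181c-5p with apelin, against 1.23 and 1.10 in controls. Both apelin values were lower, but apelin 1 lay just under control 2, and apelin 2 stood apart from the other 3 libraries. The share of entries whose ratio to miR-181c-5p is so arranged was not computed.

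**Figure D3:**
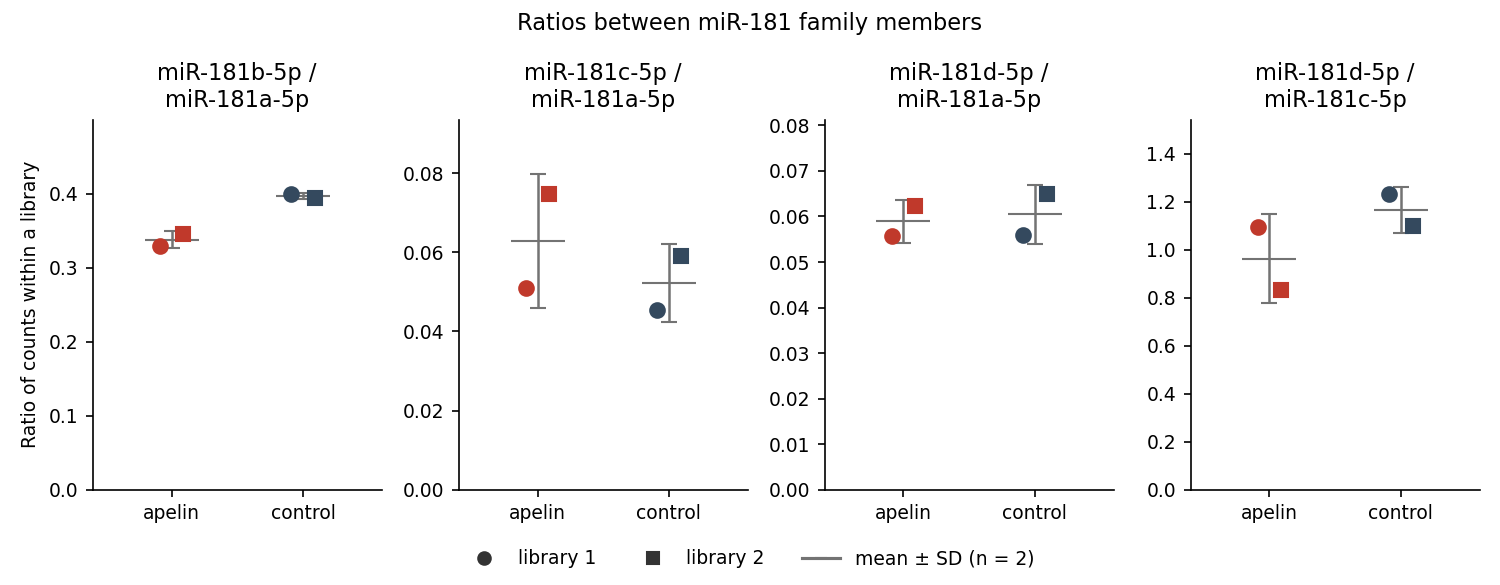
Ratio of counts between miR-181 members within each library (y axis, from 0, a separate scale per panel) for the apelin libraries and the control libraries; points are libraries, and the grey bar is the mean with its SD. The ratio of b to a was 0.329 and 0.346 with apelin, below both controls at 0.400 and 0.394, and the ratios of c and d to a overlap between the groups.

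The members differed in how closely they tracked miR-181a-5p over the 4 libraries. Likeness to miR-181a-5p, the most abundant member, was measured as the root mean square distance between log2 levels, each centred on its mean over the 4 libraries, where 0 is an identical profile. Of 212 other tested catalogue entries miR-181d-5p ranked 31 (distance 0.098), miR-181b-5p 44 (0.12) and miR-181c-5p 140 (0.27), against a median of 0.20. Thus c, which differs from a by 1 base, was the farthest of the members in profile. The distance between the genomic neighbours c and d was 0.21, and between the sequence neighbours b and d 0.14.

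The 5 entries outside the family most like miR-181a-5p over the 4 libraries were miR-629-5p (distance 0.016), miR-191-5p (0.017), miR-324-3p (0.037), miR-320d (0.047) and miR-361-5p (0.049). miR-191-5p, often used as a reference in PCR assays, had 17069 and 14553 TPM with apelin and 16843 and 17863 TPM in controls. Like miR-181a-5p it was lowest in apelin 2 and highest in control 2. With 4 libraries such likeness is a description only.

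The nearest other miRNA hairpins within 50 kb of any miR-181 hairpin were MIR23A, MIR27A and MIR24-2, between 38039 and 38515 bases from MIR181C and MIR181D and on the opposite strand. miR-24-3p, which has another hairpin elsewhere, had 19580 and 22574 TPM with apelin and 16997 and 17210 TPM in controls (log2 fold change 0.32, SE 0.13, edgeR adjusted p = 0.627). miR-27a-3p had 5277 and 6646 TPM with apelin and 3960 and 5456 TPM in controls (0.37, SE 0.24, edgeR adjusted p = 0.636). The groups of miR-24-3p did not overlap, and those of miR-27a-3p did. The share of all tested entries with both apelin libraries above both controls is not given here. miR-23a-3p had 35216 and 34651 TPM with apelin and 32678 and 36867 TPM in controls (0.029, SE 0.063, edgeR adjusted p = 0.876). These entries exceeded miR-181c-5p and miR-181d-5p by more than an order of magnitude in every library.

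Other miRNAs that share roles with the family gave no call in edgeR either. Of 11 miRNAs tied to TGF-beta or epithelial-mesenchymal transition 7 were tested, with 0 called higher, 0 called lower and a median log2 fold change of 0.26. The most abundant were miR-21-5p (0.57, SE 0.27), miR-23a-3p, miR-24-3p and miR-182-5p (-0.056, SE 0.21). Of 8 other miRNAs reported to repress BCL2 6 were tested, with 0 called and a median of 0.25, including miR-15b-5p (-0.11, SE 0.080), miR-16-5p (0.26, SE 0.20), miR-365a-3p (0.064, SE 0.35) and miR-34a-5p (0.23, SE 0.21). Of 8 lymphocyte miRNAs 3 were tested, with 0 called and a median of 0.29, namely miR-92a-3p (-0.10, SE 0.20), miR-146a-5p (0.29, SE 0.15) and miR-17-5p (0.38, SE 0.12). The medians of these lists lay above 0 and that of the miR-181 members below, and the difference between lists was not tested.

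**Figure D4:**
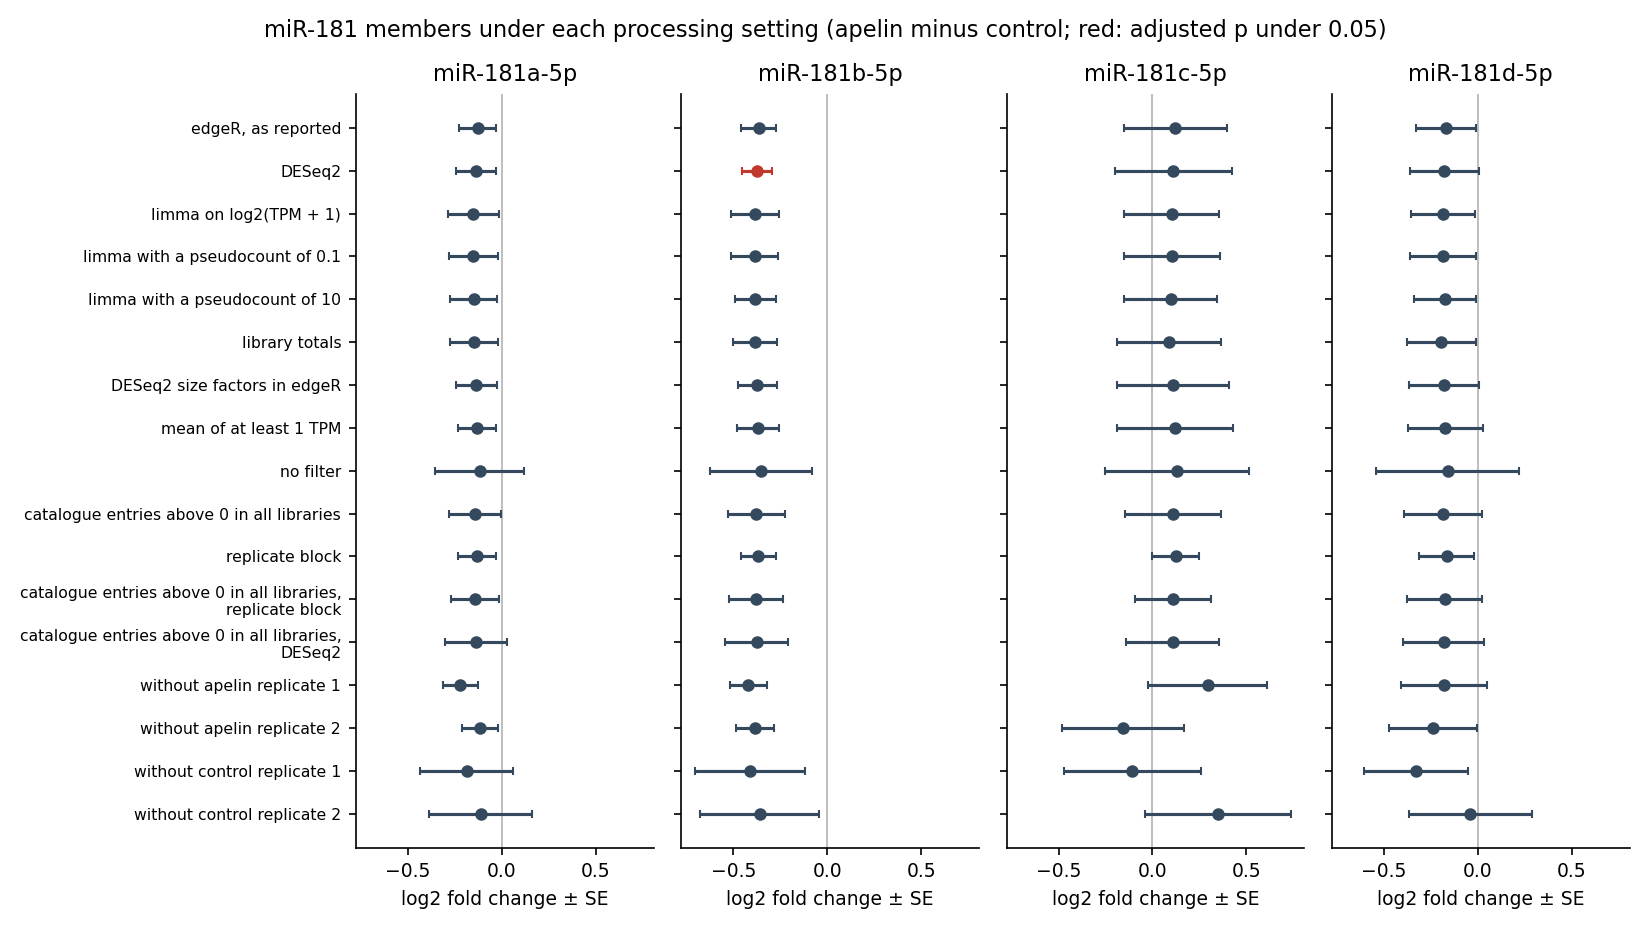
Log2 fold change of each miR-181 member, apelin minus control (x axis), under each processing setting (rows), with bars for the SE; red marks an adjusted p under 0.05. miR-181b-5p lies between -0.42 and -0.35 in every alternative and is red only under DESeq2 on all tested entries, while miR-181c-5p lies on either side of 0.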

How the data were processed

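Small RNA was ligated to adaptors, amplified by PCR and cut from a gel at 140 to 160 bp, per the labels' protocols. The submitters' processing notes name Trimmomatic 0.30 and DESeq2. The sources used here do not give the aligner, catalogue, genome build or handling of reads shared between entries. The authors deposited raw counts and TPM for each entry; the deposited TPM is counts per 1000000 counts of the library, within 0.151. The deposited table also lists a length in nt.

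Members and lists were chosen with earlier results of these data known. Named entries were all members, entries with the same seed, the 5 entries nearest in profile and up to 4 tested members of each list. Entries with a mean of at least 10 TPM were tested with edgeR 4.0.16 (quasi-likelihood test, TMM scaling, R 4.3.3), two-sided, apelin minus control, with Benjamini-Hochberg adjustment over all 263 entries and a threshold of 0.05. The SE is the absolute log2 fold change divided by the root of the F statistic. DESeq2 1.42.0 and limma 3.58.1 (log2(TPM + 1)) were alternatives, and 14 planned and 2 added settings were fitted in all. A count of 0 allows up to 3 counts, which is 0.499 to 0.564 TPM.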

Additional observations from a re-analysis of the deposited data

How the results depend on the processing

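The settings on the 207 catalogue entries above 0 in all libraries with DESeq2 or with a replicate block were chosen after seeing the data; the others were planned. The count of called entries, 0 in edgeR, was 53 with DESeq2, 4 with limma at a pseudocount of 1 or 10, 5 at 0.1, 52 with no filter, 30 of 207 with a replicate block on the catalogue entries, and 0 to 19 with a library left out (11 without control 1, 19 without control 2, 0 without either apelin library). The cause was not tested; with a library left out, fewer samples enter and the lone library is assumed to vary like the other group. The count of called miR-181 members, 0 in edgeR, was 1 (miR-181b-5p) with DESeq2 and 0 in the other 15 settings. Over the 16 settings miR-181b-5p stayed between -0.42 and -0.35 (adjusted p from 3.05e-05 to 0.974), miR-181a-5p between -0.22 and -0.11 and miR-181d-5p between -0.33 and -0.039. miR-181c-5p ran from -0.16 (without apelin 2) to 0.35 (without control 2). With a library left out, the log2 difference in the ratio to miR-181a-5p ran from -0.025 to 0.53 for miR-181c-5p and from -0.14 to 0.075 for miR-181d-5p. With a replicate block on all 263 entries 0 were called and miR-181b-5p was -0.37 (adjusted p = 0.250), and on the 207 it was -0.38 (adjusted p = 0.0623). Nothing in the labels ties libraries with the same number to each other, and deviations of same-numbered libraries correlated at 0.313 over the 207. The planned ratio of hairpin arms and its alternatives were not run, as no 3p entry of the family was among the rows.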
